A study of Mus musculus with 8 samples.

Results

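The genes described here encode the machinery next to the T cell receptor. They are 45 genes taken by name from a list, out of 16735 genes that both expression tables of the series held. All 45 were in both tables and all 45 passed the filter on low counts. They comprised 25 positive components, 17 negative regulators and 3 genes reported in both roles (Ptprc, Cd6 and Themis).

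Messenger RNA was measured in 8 bulk RNA-seq libraries of sorted Tfh cells (T follicular helper cells), which support antibody responses of B cells in germinal centres. The donors were K/BxN mice, a model of spontaneous arthritis whose T cells carry a transgenic receptor, and the mice also carried a Th17 fate-mapping reporter that leaves the fluorescent protein ZsGreen in cells with a Th17 past. All groups were sorted as CD4+, TCRβ+, CD25-negative, CXCR5+ and PD-1+ cells from Peyer's patch or spleen, and each tissue gave a ZsGreen+ and a ZsGreen-negative group of 2 libraries. Replicate 1 of each group belonged to experiment 1 and replicate 2 to experiment 2. The labels used here do not give the age or number of the mice, whether animals were pooled, or the promoter behind the reporter. Nothing says that the replicates are separate animals, so the spread that p-values measure may be technical in part. It is the spread between these libraries that remains after a term for the difference between experiments.

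The T cell receptor has no enzyme of its own. On contact with antigen the kinase LCK, held by CD4, phosphorylates the CD3 and CD247 (ζ) chains, ZAP-70 docks there and phosphorylates the scaffolds LAT and SLP-76 (encoded by Lcp2), and these gather PLCγ1, VAV1, GADS (Grap2) and other proteins that open the calcium, RAS and NF-κB branches. CSK, phosphatases, inhibitory adaptors, CBL ubiquitin ligases and diacylglycerol kinases act against these steps.

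Libraries held 10009823 to 15323743 estimated counts. Levels are given as CPM, counts scaled to a common library total with TMM factors, which correct the totals for composition. Log2 fold changes with their standard error (SE) come from edgeR's quasi-likelihood test across 14418 genes with a term for the experiment, and adjusted p-values are Benjamini-Hochberg values over all of them. A gene is said to have risen or fallen where the adjusted p was under 0.05. Principal markers of the sort were present in every library: Cd4 had 673 to 1356 CPM, and Cxcr5 had 105 to 802 CPM. Its 4 lowest values were those of the spleen, and its lowest pair that of spleen ZsGreen+ cells (124 and 105 CPM). Pdcd1, which encodes PD-1, had 374 to 1578 CPM. Within each experiment it too was lowest in spleen ZsGreen+ cells (374 and 505 CPM). Unlike that of Cxcr5, its highest value was in spleen, in replicate 2 of ZsGreen-negative cells. The Tfh genes Bcl6 and Icos had 16.6 to 244 and 208 to 1120 CPM, with Bcl6 lowest in replicate 2 of spleen ZsGreen+ cells. The B cell list (10 genes) summed to 18.4 and 88.3 CPM in Peyer's patch ZsGreen-negative, 8.63 and 76.9 in Peyer's patch ZsGreen+, 18.9 and 38 in spleen ZsGreen-negative and 5.23 and 5.54 in spleen ZsGreen+ cells. The myeloid list (8 genes) summed to 77.9 to 194 CPM, and the CD8 T and NK list (4 of 5 genes in the tables) to 19.1 to 73.3 CPM. Most of each highest sum came from 1 gene. These were Cst3 with 188 CPM in replicate 2 of spleen ZsGreen+ cells, and Klrb1c with 67.2 CPM in replicate 2 of Peyer's patch ZsGreen-negative cells. The γδ T cell list (3 of 5 genes in the tables) summed to 2.98 to 90.6 CPM, led by Trdc with 89.4 CPM in replicate 2 of spleen ZsGreen-negative cells.

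The members covered a wide range of levels. Per kilobase of exon, Lck was first in both experiments, with 1037 CPM per kilobase in experiment 2. Cd3d had rank 4 in experiment 1 and rank 2 in experiment 2, and Cd3g ranks 11 and 3. Cd4 had ranks 2 and 8, and Zap70 ranks 3 and 21, so the order beyond Lck did not hold between the experiments. The lowest were Tec, Vav3, Txk and Pag1, which took the last 4 ranks in experiment 1. Tec, which encodes a cytoplasmic tyrosine kinase, had 4.12 to 12.5 CPM over the 8 libraries. The values of Cd247 are uncertain, since 56.4% of its annotated exon length is shared with Pou2f1 on the opposite strand. Sla2 shares 23.6% with Rab5if, also on the opposite strand. The notes do not say whether counting used strand.

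The experiments differed more than the groups did. Of the 45 members, 24 differed at least 2-fold in mean CPM between experiments, 12 higher in each. The ubiquitin ligase gene Cbl had a mean of 315 CPM in experiment 1 and 41.4 in experiment 2, and Cd3g had 399 and 2609. Plcg1 had 428 and 65.1. Within an experiment the highest group exceeded the lowest by a median of 1.41-fold in experiment 1 and 1.55-fold in experiment 2. Dok2, Pag1 and Sla were the members with a span of at least 2-fold in both experiments. These 3 genes were picked out after their values were seen. Members with at least 4.79 kilobases of exon (23 genes) had a median log2 ratio of experiment 2 over experiment 1 of -0.07, and the 22 shorter ones of 0.53. Spearman's rho between exon length and that ratio was -0.41 over the 45 genes, which share their libraries. None of these comparisons of the experiments was made over all genes, so they do not set the members apart.

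Mean log2 CPM of the positive or negative class differed by at most 0.32 between ZsGreen+ and ZsGreen-negative cells of the same tissue and experiment. For the positive components the mean log2 CPM over 25 genes was 7.77 and 7.83 in Peyer's patch ZsGreen-negative, 7.78 and 7.62 in Peyer's patch ZsGreen+, 7.79 and 8.0 in spleen ZsGreen-negative and 7.73 and 7.68 in spleen ZsGreen+ cells (experiments 1 and 2). The highest of these values was that of replicate 2 of spleen ZsGreen-negative cells, the library with the lowest TMM factor (0.656, against 0.818 to 1.24 in the others). The 17 negative regulators had 7.35 and 7.08, 7.27 and 6.89, 7.49 and 7.24, and 7.46 and 7.17 in the same order. In spleen the positive class was lower in ZsGreen+ cells by a difference in mean log2 CPM of -0.06 in experiment 1 and -0.32 in experiment 2. The negative class differed by -0.03 and -0.07. As log2 of summed CPM, the spleen differences were -0.11 and -0.69 for the positive and -0.10 and 0.06 for the negative class. In Peyer's patch the differences in mean log2 CPM were 0.01 and -0.22 for the positive and -0.08 and -0.18 for the negative class. The excess of the positive over the negative class in mean log2 CPM was 0.27 to 0.50 in experiment 1 and 0.51 to 0.76 in experiment 2. These ranges did not overlap but nearly met. The nearest libraries were Peyer's patch ZsGreen+ of experiment 1 (0.503) and spleen ZsGreen+ of experiment 2 (0.511).

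**Figure D1:**
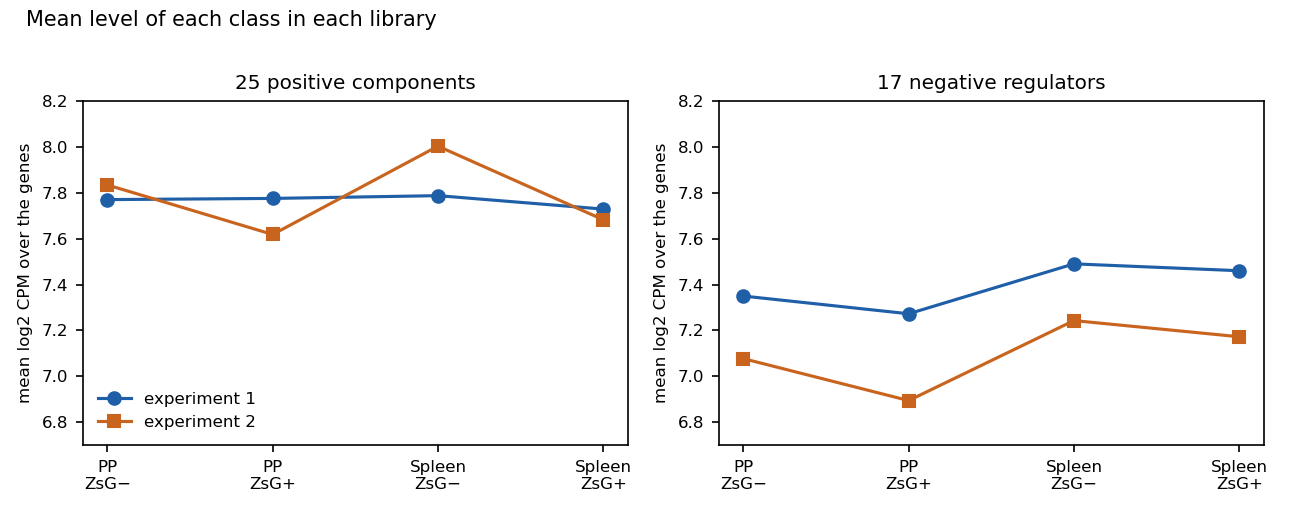
Mean log2 CPM of the 25 positive components (left) and the 17 negative regulators (right) in each of the 8 libraries; lines join the 4 libraries of an experiment and are not a time course, and there are no error bars because each point is 1 library. Negative regulators of experiment 2 lie at 6.89 to 7.24, below all 4 libraries of experiment 1 (7.27 to 7.49).

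Of the receptor chains, Cd3e was called by edgeR with TMM factors, in the spleen sort comparison. Between tissues, DESeq2 also called Cd247 in ZsGreen-negative cells, and edgeR with library totals called Cd3d in ZsGreen+ cells. Cd3e, which encodes CD3ε, had 501 and 2171 CPM in spleen ZsGreen-negative cells against 354 and 1008 CPM in spleen ZsGreen+ cells. It was lower in ZsGreen+ cells in both experiments, and fell with a log2 fold change of -0.83 ± 0.22 (SE, edgeR adjusted p = 0.0426). Over the alternative fits, with each library left out among them, that value ran from -1.14 to -0.48. In Peyer's patch Cd3e had 460 and 1413 CPM in ZsGreen-negative and 456 and 1032 CPM in ZsGreen+ cells (log2 fold change -0.22 ± 0.22, edgeR adjusted p = 0.876). The CD3 genes lie side by side on chromosome 9 (mm39): Cd3g at 44880870 to 44891729, Cd3d at 44893084 to 44898637 and Cd3e at 44910038 to 44920925.

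Cd3d and Cd3g did not pass the test. In spleen, Cd3d had 320 and 1804 CPM in ZsGreen-negative and 303 and 1049 CPM in ZsGreen+ cells (log2 fold change -0.45 ± 0.21, edgeR adjusted p = 0.247). Cd3g, the γ chain, had 385 and 4049 CPM against 419 and 2018 CPM there, so its difference was positive in experiment 1 (0.12) and negative in experiment 2 (-1.0). Without replicate 2 of spleen ZsGreen-negative cells its log2 fold change was 0.05, against -0.48 with all libraries. Cd247, the ζ chain whose motifs recruit ZAP-70, had 388 and 709 CPM against 364 and 520 CPM in spleen (-0.26 ± 0.16, edgeR adjusted p = 0.379). In Peyer's patch the log2 fold changes of Cd3d, Cd3g and Cd247 were -0.24, -0.26 and 0.10 (edgeR adjusted p = 0.846, 0.878 and 0.932).

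Cd4, Lck, Zap70 and Lat also did not pass in either sort comparison. Lck had 943 and 3965 CPM in spleen ZsGreen-negative and 927 and 2333 CPM in spleen ZsGreen+ cells, with a difference of -0.02 in experiment 1 and -0.77 in experiment 2 (log2 fold change -0.41 ± 0.24, edgeR adjusted p = 0.37). Cd4 had 1356 and 981 CPM against 1301 and 682 CPM (-0.29 ± 0.19, adjusted p = 0.421). Zap70 had 565 and 214 CPM against 650 and 222 CPM (0.13 ± 0.16, adjusted p = 0.719). Lat, the membrane scaffold, had 414 and 802 CPM against 430 and 924 CPM (0.13 ± 0.18, adjusted p = 0.73). In Peyer's patch the log2 fold changes were -0.23 for Lck (adjusted p = 0.879), -0.18 for Cd4 (adjusted p = 0.887), -0.19 for Zap70 (adjusted p = 0.829) and -0.36 for Lat (adjusted p = 0.659). The larger spleen differences of Cd3d, Cd3e, Cd3g, Cd247, Lck and Cd4 were those of experiment 2, which includes the library with the lowest TMM factor.

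**Figure D2:**
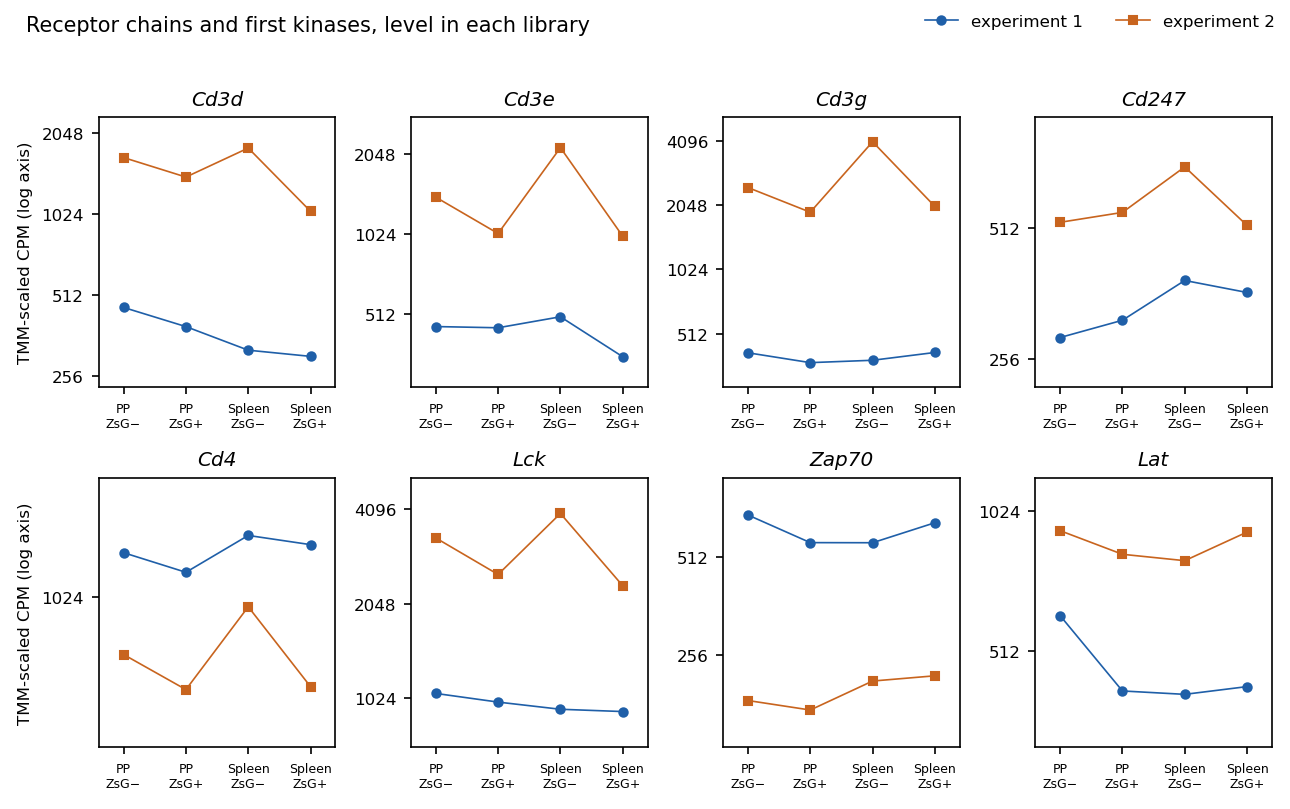
Level (TMM-scaled CPM, log axis, each panel with its own range) of 4 receptor chain genes, the coreceptor gene Cd4, the kinase genes Lck and Zap70 and the scaffold gene Lat in each library; lines join the libraries of an experiment. On the log axis, the gap between the ranges of the experiments is larger than the span of the groups within either for Cd3d, Cd3g, Lck and Zap70.

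Of the 10 members called in spleen, 7 were negative regulators. Sla, which encodes the adaptor SLAP that lowers surface receptor levels (chromosome 15, 66652668 to 66703678), had 292 and 530 CPM in spleen ZsGreen-negative cells and 744 and 1172 CPM in spleen ZsGreen+ cells. It had 269 and 347 CPM in Peyer's patch ZsGreen-negative and 330 and 396 CPM in Peyer's patch ZsGreen+ cells. Both spleen ZsGreen+ libraries were above all 6 others. Sla rose in spleen by a log2 fold change of 1.24 ± 0.18 (SE, edgeR adjusted p = 0.00195), a 2.36-fold difference.

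Dok2, an adaptor that brings a RAS inhibitor to the receptor (chromosome 14, 71003476 to 71015935), followed the same order in spleen. It had 97.9 and 253 CPM in ZsGreen-negative and 176 and 445 CPM in ZsGreen+ cells, and rose by 0.83 ± 0.13 (edgeR adjusted p = 0.00241). Its Peyer's patch levels were 48.9 and 127 CPM in ZsGreen-negative and 53.1 and 124 CPM in ZsGreen+ cells. In each experiment both spleen groups were above both Peyer's patch groups. Sla and Dok2 passed with any of the 8 libraries left out (highest adjusted p 0.0193 and 0.0245).

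Sit1, a transmembrane adaptor that recruits the phosphatase SHP-2 (chromosome 4, 43482081 to 43483734), had 48.5 and 157 CPM in spleen ZsGreen-negative and 73.3 and 241 CPM in spleen ZsGreen+ cells. It was highest in spleen ZsGreen+ cells in both experiments and rose by 0.61 ± 0.13 (edgeR adjusted p = 0.0155). Lax1, a LAT-like adaptor of the plasma membrane (chromosome 1, 133606829 to 133617846), went the other way, with 188 and 303 CPM in ZsGreen-negative against 140 and 159 CPM in ZsGreen+ cells. Lax1 fell by 0.69 on the log2 scale (SE 0.15, edgeR adjusted p = 0.0173). Its spleen ZsGreen+ libraries were the lowest of each experiment.

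The sequence upstream of the start is shown for 3 of the genes that passed in spleen in opposite directions, Sit1, Lax1 and Cd3e. The windows are the 250 bases before a RefSeq start in GRCm38.p6, a different build from that of the deposited tables. Capitals mark matches on either strand to the ETS letters CCGGAA, the RUNX letters TGTGGT or the nuclear receptor letters AGGTCA that RORγt binds. No match overlapped another. The table lists 2 overlapping windows for Lax1, and the first is shown.
Sit1, chr4:43483710-43483959, minus strand: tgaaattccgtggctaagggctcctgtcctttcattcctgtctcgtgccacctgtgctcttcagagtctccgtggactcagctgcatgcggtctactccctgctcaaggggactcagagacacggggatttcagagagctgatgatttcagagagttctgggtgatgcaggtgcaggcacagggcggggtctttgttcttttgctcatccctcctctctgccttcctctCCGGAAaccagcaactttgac
Lax1, chr1:133690109-133690358, minus strand: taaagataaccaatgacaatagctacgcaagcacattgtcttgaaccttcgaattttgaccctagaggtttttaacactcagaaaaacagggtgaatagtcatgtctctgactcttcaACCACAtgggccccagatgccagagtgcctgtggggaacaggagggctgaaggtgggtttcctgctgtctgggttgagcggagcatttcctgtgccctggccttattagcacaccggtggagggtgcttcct
Cd3e, chr9:45009612-45009861, minus strand: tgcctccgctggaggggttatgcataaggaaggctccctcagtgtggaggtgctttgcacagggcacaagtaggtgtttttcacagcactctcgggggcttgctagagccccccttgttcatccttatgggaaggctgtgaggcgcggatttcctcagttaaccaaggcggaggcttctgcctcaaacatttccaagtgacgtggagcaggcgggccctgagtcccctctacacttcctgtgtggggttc
Sit1 had 1 ETS match, 21 bases before the start, the Lax1 window shown had 1 RUNX match on the other strand, and Cd3e had none. Over 32851 such windows of all genes, 12% held CCGGAA, 14% held TGTGGT and 14% held AGGTCA. Among 52 windows of the 35 members found in the RefSeq table, 3, 8 and 6 held them (5.77%, 15.4% and 11.5%). No window was listed for Dok2, Sla or Pag1.

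Both diacylglycerol kinase genes, whose enzymes remove the lipid messenger of the RAS and PKCθ branches, fell in spleen. Dgka (chromosome 10, 128556003 to 128580724) had 578 and 442 CPM in ZsGreen-negative and 374 and 289 CPM in ZsGreen+ cells (log2 fold change -0.62 ± 0.15, edgeR adjusted p = 0.0229). Dgkz (chromosome 2, 91763169 to 91806209) had 896 and 199 CPM against 609 and 106 CPM, -0.74 ± 0.19 (edgeR adjusted p = 0.0299). In each experiment spleen ZsGreen+ cells had the lowest level of both genes. Dgka was also lower in ZsGreen+ cells of Peyer's patch, with 557 and 439 against 405 and 302 CPM, but did not pass there (-0.50 ± 0.15, edgeR adjusted p = 0.311).

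Cblb, the ubiquitin ligase gene that limits signalling without CD28 (chromosome 16, 51851588 to 52028411), had 155 and 50.3 CPM in spleen ZsGreen-negative against 99.1 and 34.8 CPM in ZsGreen+ cells, and fell by 0.59 on the log2 scale (SE 0.14, edgeR adjusted p = 0.022). Themis, an adaptor that works with the phosphatase SHP-1 (chromosome 10, 28544356 to 28759814), had 177 and 162 CPM against 123 and 117 CPM and fell by 0.50 (SE 0.13, edgeR adjusted p = 0.0374). Spleen ZsGreen+ cells had the lowest levels of Cblb and of Themis in both experiments. Tec (chromosome 5, 72913059 to 73025826) had 4.12 and 6.59 CPM against 8.68 and 12.5 CPM, and rose by 1.01 ± 0.29 (edgeR adjusted p = 0.0492) on the lowest levels of any member.

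**Figure D3:**
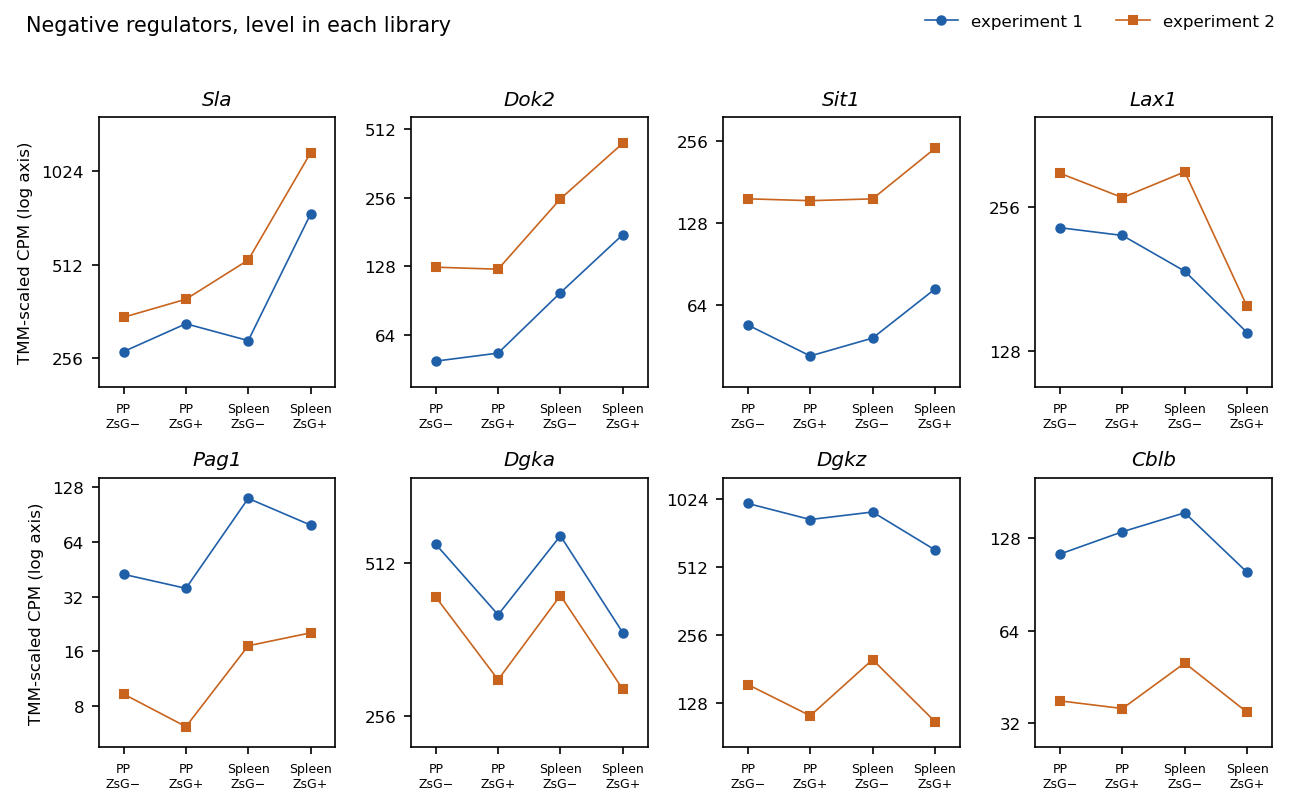
Level (TMM-scaled CPM, log axis, each panel with its own range) of 8 negative regulators in each library; lines join the libraries of an experiment. Sla, Dok2 and Sit1 are highest and Lax1, Dgka, Dgkz and Cblb lowest in spleen ZsGreen+ cells in both experiments, while Pag1 separates by tissue.

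Across the list, 4 of 45 members rose in spleen ZsGreen+ cells (Sla, Dok2, Sit1 and Tec), where 4.53% of all genes tested rose. Another 6 fell (Lax1, Cblb, Dgka, Dgkz, Themis and Cd3e), where 4.09% of all genes fell. Together 22.2% of the members changed against 8.62% of all genes tested, and against 10.8% of the 9408 genes whose mean level lay in the members' range of 7.8 to 2453 CPM. By class, 7 of the 17 negative regulators changed (3 up and 4 down), 2 of the 25 positive components (Tec up and Cd3e down) and 1 of the 3 genes of both roles (Themis down). The number of positive components called was 5 with DESeq2, which added Fyn, Plcg1 and Prkcq, and 4 with limma-voom or without a filter, which added Fyn and Plcg1. The negative regulators called numbered 7 in each of these, and with library totals 4, against 3 positive components. The median log2 fold change of the positive components was -0.28, that of the negative regulators -0.20 and that of all genes -0.03. For the positive components the median was -0.08 in experiment 1 and -0.43 in experiment 2. The direction was the same in both experiments for 37 of the 45 members, 10 higher and 27 lower in ZsGreen+ cells. Such counts were not made over all genes, so they do not set the members apart. Proliferation markers (7 genes) summed to 638 and 684 CPM in spleen ZsGreen-negative and 1417 and 2112 CPM in spleen ZsGreen+ cells, and their part in these results was not tested. In bulk samples, fewer cells of a type and less RNA per cell cannot be told apart.

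The counts rested on single libraries more than the calls of Sla and Dok2 did. Members that fell numbered 0 without replicate 2 of spleen ZsGreen-negative cells, and likewise without either replicate of spleen ZsGreen+ cells (edgeR). Members that rose numbered 2 (Sla and Dok2) without any 1 of the 4 spleen libraries. Without the experiment term edgeR called 0 members, in this and in each other comparison. With library totals in place of TMM factors 4 rose and 3 fell, and Lax1, Cblb, Dgka and Themis no longer passed.

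In Peyer's patch no member passed the test, where 0.437% of all genes changed. At an unadjusted p under 0.05 edgeR had 2 members lower (Dgka and Themis) and 0 higher, where 3.82% and 4.31% of all genes were. With an adjusted p under 0.05 as the threshold, limma-voom called 0 members and DESeq2 called Dgka. Themis had 163 and 180 CPM in ZsGreen-negative and 134 and 130 CPM in ZsGreen+ cells (log2 fold change -0.38 ± 0.13, edgeR adjusted p = 0.421). The next smallest p-values were those of Ubash3a (-0.27, adjusted p = 0.653), a binder of CBL proteins, of Vav1 (-0.26, adjusted p = 0.658), an exchange factor that acts on actin, and of Pag1 (-0.39, adjusted p = 0.659), the membrane anchor of CSK. The members' log2 fold changes ran from -0.50 to 0.50 with a median of -0.18, against 0.00 for all genes. Of the 45 members, 33 had a negative value, and 25 were lower in ZsGreen+ cells in both experiments against 5 higher in both. Here too no counts of direction over all genes were made for comparison.

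**Figure D4:**
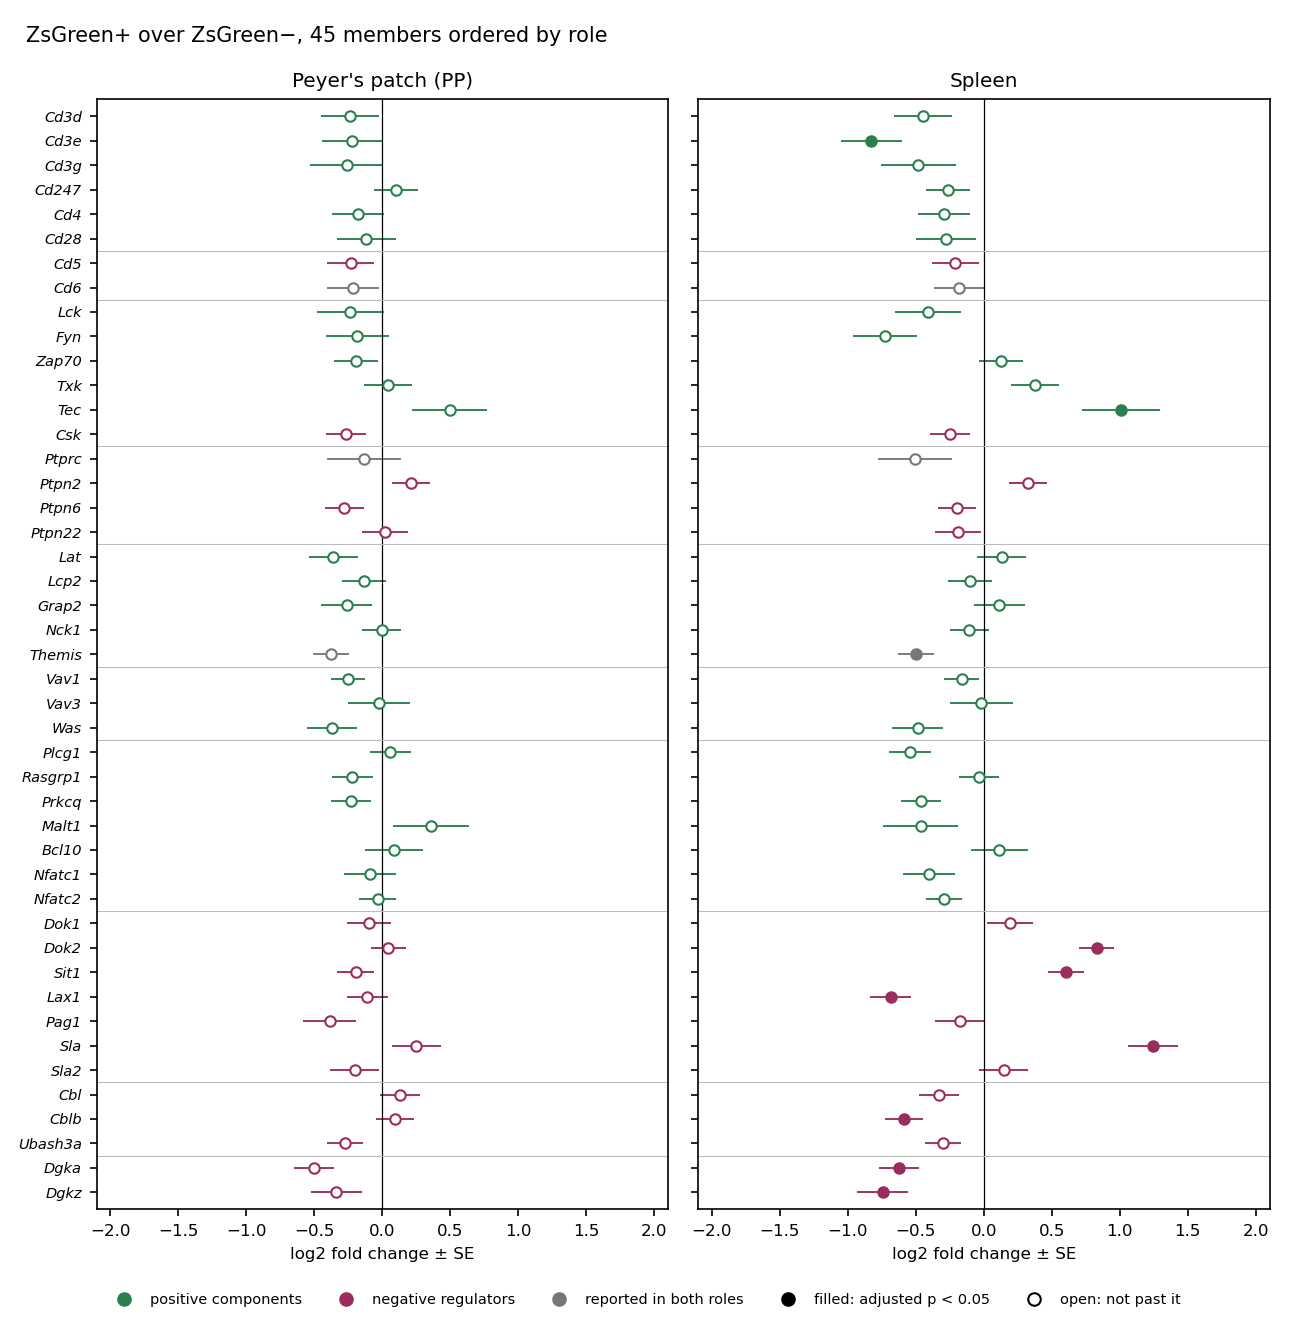
Log2 fold change of ZsGreen+ over ZsGreen-negative cells with its SE (edgeR fit over 8 libraries) for each of the 45 members, ordered from receptor chains at the top to diacylglycerol kinases at the bottom, in Peyer's patch (left) and spleen (right). Filled points passed an adjusted p of 0.05: 0 in Peyer's patch and 10 in spleen.

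The sort effects of the tissues were compared directly as spleen minus Peyer's patch. No member passed by edgeR, where 0.0971% of all genes did. At an unadjusted p under 0.05 there were 3 members with a larger and 4 with a smaller value in spleen, where 3.81% and 4.67% of all genes were. The larger ones were Sla (0.99 ± 0.26, edgeR adjusted p = 0.205), Dok2 (0.79 ± 0.18, adjusted p = 0.159) and Sit1 (0.80 ± 0.19, adjusted p = 0.16). With an adjusted p under 0.05 as the threshold, DESeq2 called these 3 and limma-voom called 0. The smaller ones with the lowest p were Cblb (-0.68, edgeR adjusted p = 0.272) and Plcg1 (-0.60, adjusted p = 0.436). For the receptor chains and first kinases the difference was -0.21 for Cd3d, -0.61 for Cd3e, -0.22 for Cd3g, -0.37 for Cd247, -0.11 for Cd4, -0.17 for Lck, 0.32 for Zap70 and 0.49 for Lat (edgeR adjusted p from 0.662 to 0.966). In both experiments Lat, Sit1 and Zap70 were lower in ZsGreen+ cells of Peyer's patch and higher in those of spleen, and Cd247 and Plcg1 the reverse. These 5 genes were picked out by their signs.

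The tissues were next compared within each sort. The comparisons use the same libraries as the sort comparisons, so their values stand side by side and do not add evidence to one another. In ZsGreen-negative cells 3 of 45 members fell in Peyer's patch relative to spleen, where 3.68% of all genes fell, and 0 rose by edgeR, where 1.82% rose. At an unadjusted p under 0.05 edgeR had 3 members higher, where 7.26% of all genes were. With an adjusted p under 0.05 as the threshold, DESeq2 and limma-voom called 0 higher. Together 6.67% of the members changed against 5.49% of all genes, or 6.53% of the genes in the members' range of levels. With library totals in place of TMM factors 2 rose (Lat and Ptpn22) and 2 fell. The 3 were negative regulators. Dok2 was lower by the same amount in both experiments, with a log2 fold change of -1.0 ± 0.13 (edgeR adjusted p = 0.000921).

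Pag1 (chromosome 3, 9752539 to 9898739) had 42.5 and 9.31 CPM in Peyer's patch ZsGreen-negative and 111 and 17.2 CPM in spleen ZsGreen-negative cells, -1.19 ± 0.19 (edgeR adjusted p = 0.00312). Ptpn6, which encodes the phosphatase SHP-1, had 195 and 285 CPM against 286 and 462 CPM, -0.62 ± 0.14 (edgeR adjusted p = 0.0246). Both genes were lower in Peyer's patch in each experiment. When the first Peyer's patch ZsGreen-negative library was left out, Dok2 was the 1 member of these 3 that passed. The next smallest p-values were those of Cblb (-0.43, adjusted p = 0.11) and Ubash3a (0.39, adjusted p = 0.127). The core genes ranged from -0.43 for Cd247 (adjusted p = 0.179) to 0.40 for Lat (adjusted p = 0.276), with Cd3d at 0.18, Cd3e at -0.39, Cd3g at -0.35, Cd4 at -0.22, Lck at -0.06 and Zap70 at 0.05.

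In ZsGreen+ cells 4 members rose and 6 fell in Peyer's patch relative to spleen, where 5.51% of all genes rose and 7.17% fell. Together 22.2% of the members changed against 12.7% of all genes, or 15.4% of the genes in the members' range of levels. The proliferation markers summed to 364 and 842 CPM in Peyer's patch ZsGreen+ cells, below both spleen ZsGreen+ libraries (1417 and 2112 CPM), and their part in this comparison was not tested either. Of the 6 that fell, 5 were negative regulators. Dok2 fell by 1.79 on the log2 scale (SE 0.13, edgeR adjusted p = 1.64e-05), Pag1 by 1.40 (SE 0.19, adjusted p = 0.000485) and Sla by 1.36 (SE 0.18, adjusted p = 0.000513), and these 3 passed with any library left out. Pag1 had 35.6 and 6.15 CPM in Peyer's patch ZsGreen+ and 79.4 and 20.2 CPM in spleen ZsGreen+ cells. Sit1 fell by 0.72 (adjusted p = 0.00376) and Ptpn6 by 0.71 (adjusted p = 0.00662). Ptpn6 had 168 and 225 CPM against 272 and 371 CPM. Txk, a tyrosine kinase gene and the positive component that fell, had 18 and 51.3 CPM in Peyer's patch ZsGreen+ against 38.4 and 79.6 CPM in spleen ZsGreen+ cells (log2 fold change -0.85 ± 0.18, adjusted p = 0.0076).

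The 4 members that rose in Peyer's patch ZsGreen+ cells were Plcg1, Lax1, Ptpn22 and Fyn. Plcg1, the phospholipase of the calcium branch, had 509 and 76.9 CPM against 320 and 39.9 CPM (0.80 ± 0.15, edgeR adjusted p = 0.00485). Lax1 had 223 and 268 CPM against 140 and 159 CPM (0.71 ± 0.15, adjusted p = 0.0095). Ptpn22, a phosphatase that acts on LCK and ZAP-70, had 416 and 477 CPM against 242 and 327 CPM (0.67 ± 0.17, adjusted p = 0.0219). Fyn, a kinase of the same family as LCK, had 916 and 1037 CPM against 550 and 556 CPM (0.81 ± 0.23, adjusted p = 0.0413). All 4 were higher in Peyer's patch in each experiment.

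The number that rose in that comparison was 1 when the first Peyer's patch ZsGreen+ library was left out. It was 2 without the first and 0 without the second spleen ZsGreen+ library. With library totals in place of TMM factors 7 rose and 5 fell. The core genes did not pass with TMM factors, with log2 fold changes from -0.27 for Zap70 (adjusted p = 0.317) to 0.39 for Cd3d (adjusted p = 0.265). Cd3e had 0.21, Cd3g -0.13, Cd247 -0.06, Cd4 -0.10, Lck 0.11 and Lat -0.10 (edgeR adjusted p from 0.596 to 0.854).

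**Figure D5:**
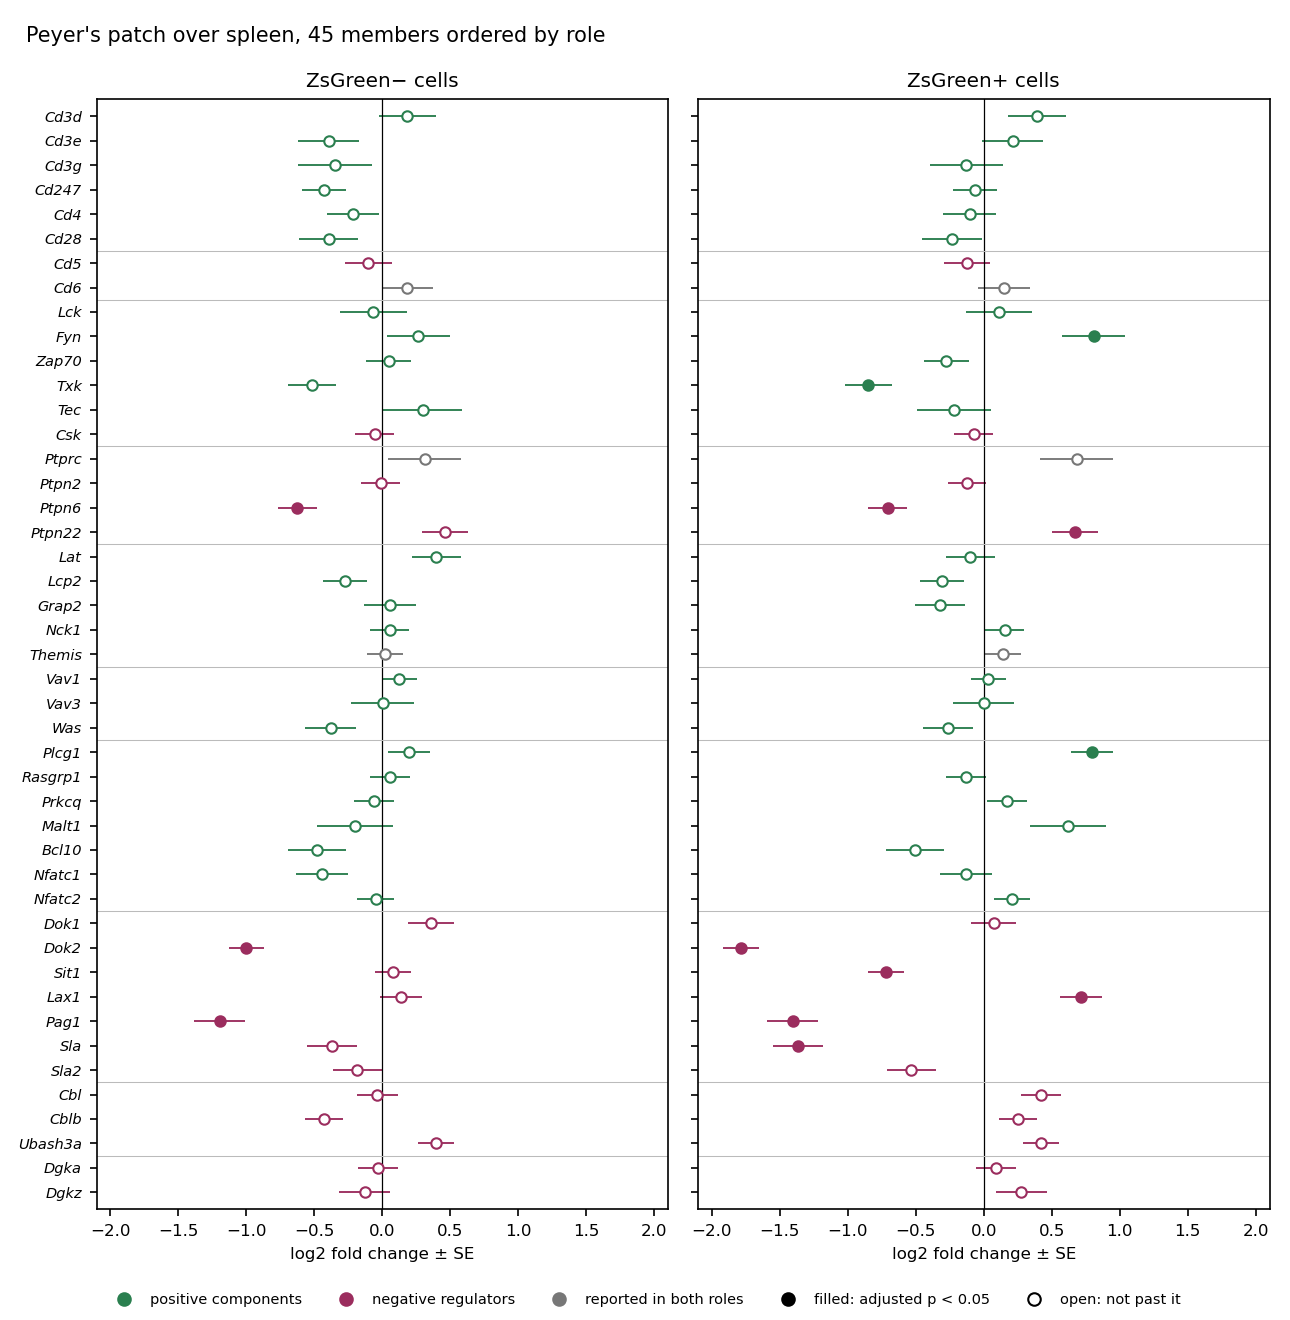
Log2 fold change of Peyer's patch over spleen with its SE (edgeR fit over 8 libraries) for each of the 45 members, ordered by role, in ZsGreen-negative (left) and ZsGreen+ cells (right). Filled points passed an adjusted p of 0.05: 3 in ZsGreen-negative cells, all below 0, and 10 in ZsGreen+ cells, 4 above and 6 below 0.

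Over the 4 groups, 20 members had the same highest group in both experiments. Spleen ZsGreen-negative cells were highest for 10 of them (Cblb, Cd247, Cd28, Cd3e, Cd4, Csk, Dgka, Nfatc1, Ptpn6 and Was) and spleen ZsGreen+ cells for 6 (Bcl10, Dok2, Ptpn2, Sit1, Sla and Txk). The same group was lowest in both experiments for 29 members. This was spleen ZsGreen+ for 15, among them Cd3d, Cd3e, Lck, Fyn, Plcg1, Ptprc, Dgka and Dgkz, and Peyer's patch ZsGreen+ for 11, among them Cd3g, Cd4, Csk, Lcp2, Pag1 and Sit1. Highest and lowest groups were not counted over all genes, so these counts describe the members and do not set them apart.

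Of 50 further genes of the pathway, 2 rose and 4 fell in spleen ZsGreen+ cells, 12% of them against 8.62% of all genes. Ppp3ca, a catalytic subunit of calcineurin that activates NFAT, rose by 1.67 ± 0.28 (edgeR adjusted p = 0.00413), and Itpr1, an IP3-gated calcium channel, by 0.83 ± 0.16 (adjusted p = 0.00928). Wipf1, which stabilises the actin regulator WASP, fell by 0.79 (adjusted p = 0.00716), the phosphatase gene Ptpn11 by 0.93 (adjusted p = 0.0143) and the UBASH3A relative Ubash3b by 0.55 (adjusted p = 0.0287). In Peyer's patch 0 of the 50 passed by edgeR, with 3 lower at an unadjusted p under 0.05, where 3.82% of all genes were. For Peyer's patch over spleen, 1 rose and 4 fell in ZsGreen-negative cells (10% against 5.49% of all genes), and 4 rose and 5 fell in ZsGreen+ cells (18% against 12.7%). Rasa3, a RAS inhibitor, fell in both (-1.61 and -1.52, edgeR adjusted p = 5.8e-05 and 3.71e-05), as did Ppp3ca (-1.65 and -2.70, adjusted p = 0.0103 and 0.000154), Orai1, the store-operated calcium channel (-0.69 and -1.04, adjusted p = 0.0459 and 0.00273), and the phosphatase gene Dusp2 (-1.44 and -1.21, adjusted p = 0.0323 and 0.0335). Trat1, a transmembrane adaptor, rose in ZsGreen-negative cells of Peyer's patch (0.60, adjusted p = 0.0197). In ZsGreen+ cells the 4 that rose were Rasa1 (0.62, edgeR adjusted p = 0.0145), Ptpn11 (0.83, adjusted p = 0.0162), Itpr2 (0.76, adjusted p = 0.0189) and Icos (0.82, adjusted p = 0.0266). Nck2 fell there too (-0.71, adjusted p = 0.0162). No further gene passed in the difference of the sort effects by edgeR. At an unadjusted p under 0.05, 3 of the 50 were larger and 4 smaller in spleen, where 3.81% and 4.67% of all genes were.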

How the data were processed

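The raw tables, as the authors deposited them, hold estimated counts per gene. Of their values 17.6% to 29.9% were not whole (tolerance 0.01). The normalized signal deposited by the authors is these counts times 1 factor per library (0.765 to 1.58), and served this check alone. The submitters' processing notes name Partek, STAR, DESeq2 and the mm39 build, with their versions and settings not given in the sources used here. Per the labels' protocols, libraries were made either with poly A selection or with an ultra-low-input method that keeps no strand, and which library had which is not said.

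Counts of the 16735 genes in both tables were rounded. edgeR 4.0.16 in R 4.3.3 kept 14418 genes (filterByExpr, minimum count 10, total 15), with TMM factors of 0.656 to 1.24, 4 group means and an experiment term, leaving 3 residual degrees of freedom. The experiment number pairs the libraries per the labels: same-numbered libraries deviated together from their group means (r across genes 0.825 to 0.867). The fits were tested on simulated data. Alternatives were DESeq2 1.42.0, limma-voom 3.58.1, other scalings and filters, no experiment term and each library left out. Mean log2 CPM has a prior count of 2. Exon lengths are from GENCODE M21. Coordinates are those of the deposited tables in mm39, with the end 1 base before the listed stop.

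The members, their classes and the other lists were chosen with earlier results of these data known. Named were all members past the threshold in a comparison, 8 core genes, and the 5 smallest p-values where fewer than 5 passed.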

Additional observations from a re-analysis of the deposited data

How the results depend on the processing

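Without the experiment block, which uses the replicate pairing, edgeR called 0 members and 0 genes in each of the 5 comparisons (unadjusted p under 0.05: 0 members in 4 comparisons and 1 in Peyer's patch over spleen, ZsGreen+), and Cd3d in Peyer's patch over spleen, ZsGreen-negative, was at -4.76e-05. The other alternatives kept the direction of each called member. With library totals the median of all genes moved by 0.11 in the Peyer's patch sort, 0.14 in the spleen sort, and 0.16 and 0.13 in the tissue comparisons of ZsGreen-negative and ZsGreen+ cells. The share of higher calls among all genes went from 65.1% to 74.1%, 52.5% to 67.5%, 33.1% to 46% and 43.4% to 53.6%, and in the sort difference from 71.4% to 51.3%. Calls then were 170 genes in the Peyer's patch sort, 3 members lower in the spleen sort, 1 member higher and 113 genes in the sort difference, and 2 and 7 members higher in the tissue comparisons. Lck then had 0.13 in ZsGreen-negative, and Cd247, Cd4 and Lat 0.075, 0.028 and 0.039 in ZsGreen+ cells. Without a filter the sort difference had 47 genes. DESeq2 called 1 member lower and 147 genes in the Peyer's patch sort, and 3 members higher and 144 genes in the sort difference, against 39 and 7 genes with limma-voom, which put Zap70 at -0.012 between tissues in ZsGreen-negative cells. As log2 of summed CPM, positive minus negative was 1.05, 2.13, 1.13 and 2.0 in Peyer's patch and 0.99, 2.28, 0.99 and 1.53 in spleen (ZsGreen-negative 1 and 2, then ZsGreen+ 1 and 2).

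With each library left out, the Peyer's patch sort had 7 to 88 genes called. The spleen sort had 2 to 4 members higher, 0 to 8 lower and 487 to 1357 genes. The sort difference had 0 to 1 members lower and 2 to 93 genes. Peyer's patch over spleen had 1 to 3 members lower and 313 to 893 genes in ZsGreen-negative cells, and 0 to 5 members higher and 863 to 1965 genes in ZsGreen+ cells. Changes of sign were looked for among the named members of each comparison alone, not among the remaining members. Values that changed sign were all of uncalled core genes. They ran from -0.52 to 0.027 for Cd3e in the Peyer's patch sort, and from -0.94 to 0.049 for Cd3g and -0.019 to 0.27 for Zap70 in the spleen sort. In the sort difference they ran from -0.51 to 0.14 for Cd3d, -0.66 to 0.32 for Cd3g, -0.27 to 0.043 for Cd4 and -0.46 to 0.16 for Lck. Between tissues in ZsGreen-negative cells they ran from -0.13 to 0.52 for Cd3d, -0.79 to 0.19 for Cd3g, -0.35 to 0.26 for Lck and -0.13 to 0.20 for Zap70. In ZsGreen+ cells they ran from -0.090 to 0.44 for Cd3e, -0.37 to 0.13 for Cd3g, -0.24 to 0.11 for Cd247, -0.26 to 0.044 for Cd4, -0.073 to 0.29 for Lck and -0.23 to 0.023 for Lat. The cause was not tested. With 2 libraries a group and 3 residual degrees of freedom, small differences are not detectable, and a library alone in its group is assumed to vary like the others.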
